A study of Mus musculus with 4 samples.

Results

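Type 1 conventional dendritic cells (cDC1) of the mouse colon were described in 4 droplet libraries of 3' RNA. The cells were chosen by their own counts of unique molecular identifiers (UMIs, each standing for 1 captured RNA molecule). A cell had to carry at least 2 UMIs of Xcr1 and Clec9a together and at least 3 of H2-Ab1, with at most 14 of C1qa, C1qb and C1qc together, at most 1 of Cd79a and at most 1 of Fscn1. This rule selected 233 of 16557 cells, after barcodes with under 200 genes or over 10% of UMIs from mitochondrial genes had been set aside. The libraries were made from cells enriched for CD11b, the product of Itgam, from the colon of untreated mice. The groups were Csf2-/- SILT, WT (Csf2+/+) SILT, Csf2-/- lamina propria and WT lamina propria, with 1 library each. SILT are solitary isolated lymphoid tissues, small clusters of lymphocytes and other immune cells in the intestinal wall, and the lamina propria is the connective tissue under the epithelium. Mice of both genotypes carried 1 GFP reporter allele at Cx3cr1 and 1 RFP reporter allele at Ccr2, so that levels of those genes are uncertain in every group. The design text names 5 mice and does not say how their cells were distributed over the libraries, and no ages are given.

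cDC1 take up dying cells and present their antigens on MHC class I to CD8 T cells, a process called cross-presentation. They arise under the transcription factors IRF8 and BATF3 and the receptor FLT3. XCR1 is their receptor for the chemokine XCL1, and CLEC9A binds actin that dead cells expose. In the gut many carry CD103, the integrin alpha chain encoded by Itgae, which pairs with integrin beta 7 and binds E-cadherin on epithelium. CSF2 (GM-CSF) is a myeloid growth factor that signals through CSF2RA and the beta chain CSF2RB to STAT5, and it is known to raise CD103 on dendritic cells in culture. CD11b is a marker of the other conventional dendritic cells (cDC2) and of monocytes and macrophages, and cDC1 are known for little of it, so the cDC1 described here are those that passed an enrichment for another marker.

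The gate held 49 cells in Csf2-/- SILT, 102 in WT SILT, 51 in Csf2-/- lamina propria and 31 in WT lamina propria. Of the 262 cells with at least 2 UMIs of Xcr1 and Clec9a, 22 were lost on C1q, 6 on Cd79a, 1 on H2-Ab1 and 0 on Fscn1. Both chemokine receptor and lectin were seen in 179 members, Xcr1 without Clec9a in 28 and Clec9a without Xcr1 in 26. At the edge of the gate stood 33 members with exactly 2 UMIs. Their Irf8 level was 640 CPM (the usual counts scale, here UMIs of the gene scaled to the total UMIs of the summed cells) in Csf2-/- SILT, 630 in WT SILT, 727 in Csf2-/- lamina propria and 269 in WT lamina propria. Cells with 1 UMI, just outside, had 603, 366, 186 and 132 CPM of Irf8 in that order of groups, and members with 3 or more had 1683, 1261, 1785 and 1807 CPM. The members nearest the edge therefore held less Irf8 than the core of the gate in each library, and in Csf2-/- SILT, where 6 members stood at the edge, a level close to that of the 24 cells just outside it. By cells, at least 1 Irf8 UMI was found in 83.3% of edge members of Csf2-/- SILT and 75% of WT SILT. It was found in only 37.5% of the 8 edge members of Csf2-/- lamina propria and 42.9% of the 7 of WT lamina propria.

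Depth differed less between the groups for cDC1 than for all cells. The summed cDC1 held 856947 UMIs in Csf2-/- SILT, 1694590 in WT SILT, 932470 in Csf2-/- lamina propria and 578612 in WT lamina propria, with medians of 15834.5 to 19067 UMIs per cell. Kept cells numbered 1974 to 7714 per library. Csf2 itself had 0 UMIs in either Csf2-/- library, against 24 UMIs in WT SILT and 2 in WT lamina propria, and 0 UMIs in cDC1 of any library. Pairs of libraries shared 3 to 19 barcodes, none of them of a cDC1. Xist, the transcript of the inactive X chromosome, had 501 CPM in cDC1 of Csf2-/- SILT and 132 CPM in WT SILT, and 846 CPM in Csf2-/- lamina propria and 517 CPM in WT lamina propria. It thus differed between genotypes and also between the tissues of each genotype, and the part of the sex of the mice in any result below was not tested. Each group of 1 genotype in 1 tissue has 1 library, so ratios within a tissue or a genotype have no replicate and no p. Intervals below are exact 95% intervals for counting error alone, and differences between mice are not in them.

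The share of cDC1 among kept cells was higher in the Csf2-/- libraries of both tissues. It was 2.06% in Csf2-/- SILT (exact binomial interval 1.53% to 2.72%), against 1.32% in WT SILT (1.08% to 1.60%). It was 2.58% in Csf2-/- lamina propria (1.93% to 3.38%), against 0.690% in WT lamina propria (0.469% to 0.978%). The intervals of the 2 SILT libraries overlap, and those of the 2 lamina propria libraries do not. The order changed with the denominator. Among the cells of the dendritic cell gates (cDC1, cells with at least 2 Cd209a UMIs and no Xcr1 or Clec9a, and cells with Fscn1 and Ccr7), cDC1 made up 20.5% in Csf2-/- SILT and 25.2% in WT SILT, and 18.4% in Csf2-/- lamina propria and 8.88% in WT lamina propria. A share of enriched cells depends on how many other CD11b-bearing cells a library holds and on how cDC1 passed the enrichment, which were not tested. Fewer cells of 1 type and more of the others cannot be told apart by such shares.

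**Figure D1:**
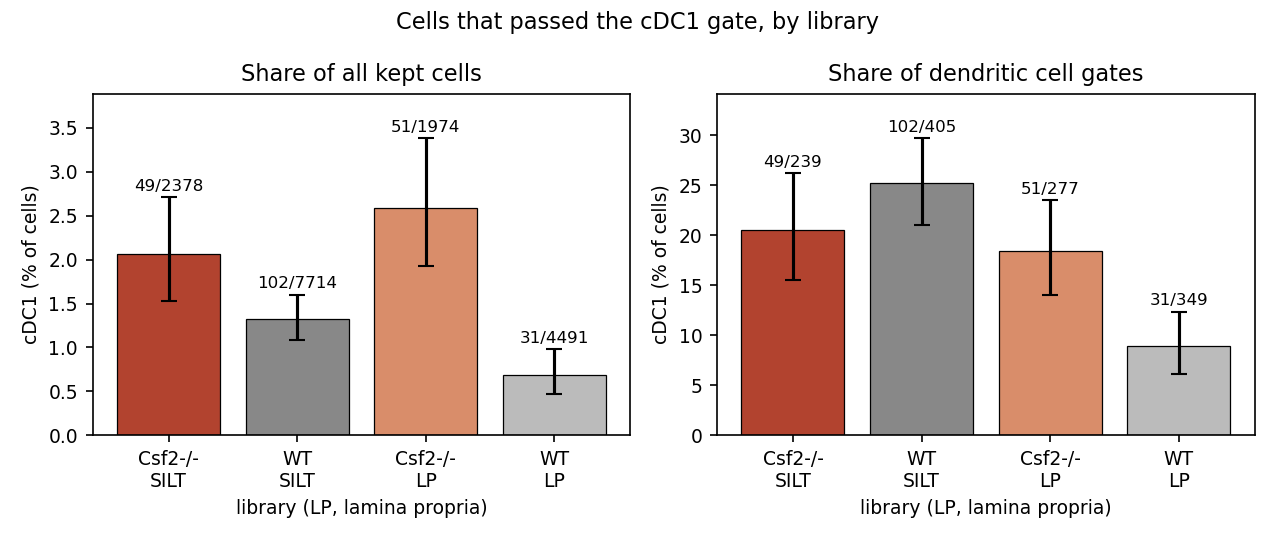
Share of cells in each library that passed the cDC1 gate, among all kept cells (left) and among the cells of the dendritic cell gates (right), in percent. Error bars are exact 95% binomial intervals and the numbers above the bars are cDC1 over all cells counted. The Csf2-/- bar stands above the WT bar in both tissues on the left, and only in the lamina propria on the right.

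The transcripts that define cDC1 but were not used by the gate were found in all 4 libraries. Irf8, the lineage's transcription factor, had 1580 CPM in Csf2-/- SILT, 1220 in WT SILT, 1680 in Csf2-/- lamina propria and 1492 in WT lamina propria. Batf3, its partner, had 218, 221, 160 and 169 CPM in the same order. Tlr3, a receptor of double-stranded RNA, had 212, 267, 208 and 304 CPM. The libraries thus differed by less than 1.5 times in these 3 genes. By its transcription factors the label cDC1 held for the summed cells of each library, though not for every member at the edge of the gate. Itgae, the third marker of the label, did not hold evenly, as set out below. Irf8 lies on chromosome 8 (120736358 to 120756694, plus strand, GRCm38), Batf3 on chromosome 1 (191097847 to 191108945, plus strand), Xcr1 on chromosome 9 (123852315 to 123862029, minus strand) and Clec9a on chromosome 6 (129408862 to 129424763, plus strand).

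Of the cDC1 identity genes compared, Itgae differed most between genotypes in both tissues. Its level was 22.2 CPM in Csf2-/- SILT (19 UMIs), against 208 CPM in WT SILT (353 UMIs), and 27.9 CPM in Csf2-/- lamina propria (26 UMIs), against 107 CPM in WT lamina propria (62 UMIs). Both Csf2-/- libraries lay below both WT libraries. The level was 9.40-fold lower in Csf2-/- SILT than in WT SILT (interval 5.93 to 15.8) and 3.84-fold lower in Csf2-/- lamina propria than in WT lamina propria (2.40 to 6.33). Between tissues it was 1.94-fold higher in WT SILT than in WT lamina propria (1.48 to 2.59), while in Csf2-/- mice the ratio of SILT to lamina propria was 0.795 with an interval of 0.416 to 1.49. Itgae lies on chromosome 11 (73090583 to 73147446, plus strand).

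The 4 sums were also fitted together, with tissue as a block, so that 2 Csf2-/- libraries were set against 2 WT libraries. This fit was chosen after the data had been seen, takes 1 genotype effect for both tissues, leaves 1 residual degree of freedom and borrows most of a gene's spread from other genes. Whether the 2 libraries of a genotype came from different mice is not stated. They may therefore not be independent replicates, and the p values below do not measure differences between mice. Itgae was lower in Csf2-/- cDC1 with both tools, at a log2 difference of -2.61 ± 0.26 with edgeR (SE, adjusted p = 1.74e-19 over 7311 genes) and of -2.58 ± 0.48 with DESeq2 (adjusted p = 2.07e-04). Irf8, Flt3, Csf2ra, Csf2rb and Itgb7 did not pass, at log2 differences of 0.25 to 0.45 and edgeR adjusted p of 0.392 to 0.732. Zeb2, another cDC1 identity gene, Havcr2 and Sptbn1 were lower with edgeR (adjusted p = 0.0389, 0.0176 and 0.00782). Rtl8a was higher with edgeR (adjusted p = 2.13e-06). Zeb2, Havcr2, Sptbn1 and Rtl8a did not pass with DESeq2. edgeR called 33 genes higher (0.451%) and 85 lower (1.16%) in Csf2-/- cDC1. DESeq2 called 3 higher, Xist and Apol7c among them, and 6 lower. Among the lower ones were Itgae, Hist1h1b, Hist1h1e and the ribosomal RNA-like transcripts Gm42418 and AY036118. These transcripts had smaller DESeq2 adjusted p than Itgae, 4.60e-47 for Gm42418 and 1.43e-11 for AY036118. With edgeR, Gm42418 also had a smaller adjusted p than Itgae (3.27e-24), so Itgae was the strongest call of neither tool. For SILT against lamina propria with genotype as a block, edgeR called 307 genes higher (4.2%) and 208 lower (2.85%), and DESeq2 63 and 12. Itgae was higher in SILT by 0.81 ± 0.25 with edgeR (adjusted p = 0.0271), and with DESeq2 by 0.63 ± 0.48 (unadjusted p = 0.188, with no adjusted value).

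The difference was seen in how many cells carried Itgae and in how much they carried. At least 1 Itgae UMI was found in 9 of 49 cDC1 of Csf2-/- SILT and 65 of 102 of WT SILT, and in 9 of 51 of Csf2-/- lamina propria and 15 of 31 of WT lamina propria. At least 3 UMIs were found in 3 cells of Csf2-/- SILT and 45 of WT SILT, and in 4 cells of Csf2-/- lamina propria and 6 of WT lamina propria. The highest cell held 4 UMIs in Csf2-/- SILT and 22 in WT SILT, and 6 in Csf2-/- lamina propria and 13 in WT lamina propria. In WT SILT, 37 cDC1 had none, so that the WT cells were themselves mixed. With every cell thinned to 5000 UMIs, the share with Itgae was 2.08% in Csf2-/- SILT and 47.5% in WT SILT, and 10.2% in Csf2-/- lamina propria and 19.4% in WT lamina propria, with 1, 3, 2 and 0 shallower cells left out. The exact intervals of these shares do not overlap in SILT (0.0527% to 11.1% in Csf2-/- and 37.3% to 57.8% in WT). They overlap in the lamina propria (3.40% to 22.2% in Csf2-/- and 7.45% to 37.5% in WT). Endothelial cells, which should lack Itgae, showed it in at most 0.302% of cells thinned the same way, from median depths of 6160 to 8210 UMIs.

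**Figure D2:**
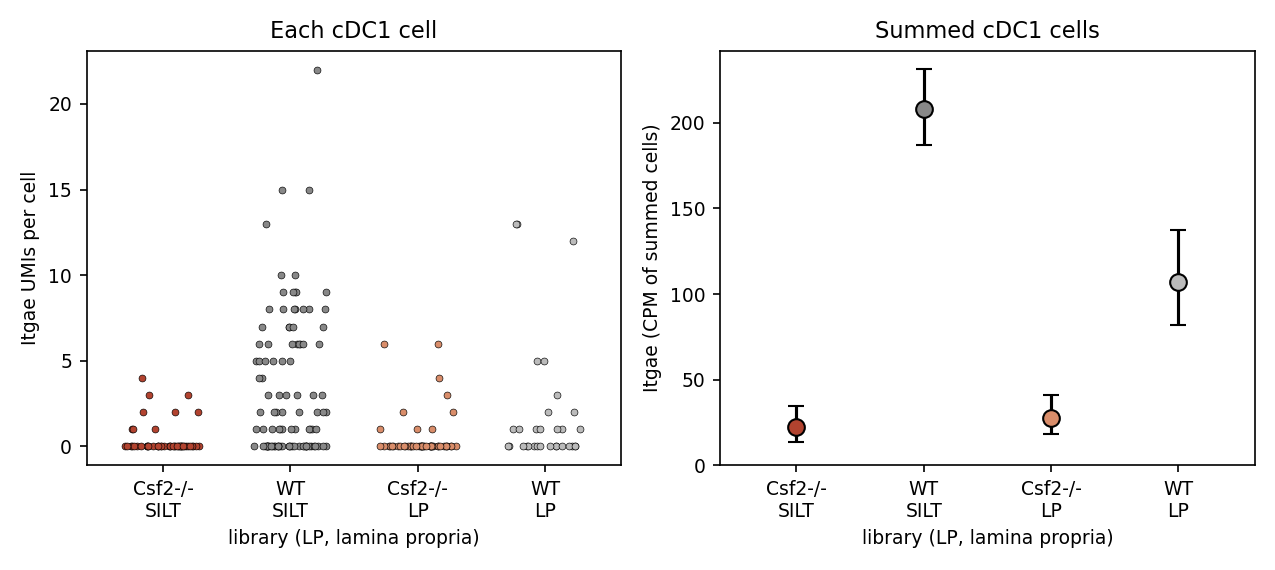
Itgae in cDC1 by library: UMIs in each cell (left, 1 point per cell, spread sideways at random) and the level in the summed cells in CPM with its exact 95% Poisson interval (right). Cells with 5 or more UMIs stand mainly in the WT libraries, and the summed level is 22.2 and 27.9 CPM in the Csf2-/- libraries against 208 and 107 CPM in the WT libraries.

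Itgae was also lower in Csf2-/- cDC1 when only deep cells, cells out of division or members without Cd209a were taken. Among cDC1 with at least 10000 UMIs it was 9.60-fold lower in Csf2-/- SILT than in WT SILT and 3.48-fold lower in Csf2-/- than in WT lamina propria. Among cells with under 3 cell cycle UMIs (a class described below) it was 8.35-fold and 3.05-fold lower. Without the members that held 2 or more Cd209a UMIs it was 8.82-fold and 4.41-fold lower. All of these subsets were chosen after the data had been seen. Its level was lower outside the gate as well. Cd209a-gated cells of Csf2-/- SILT had 2 UMIs (1.12 CPM) and those of WT SILT 49 UMIs (16.4 CPM), a ratio of 0.0685 (interval 0.00807 to 0.261), and those of Csf2-/- lamina propria had 0 UMIs against 44 UMIs (9.37 CPM) in WT lamina propria. T cells were too few to compare, with 14 cells and 0 Itgae UMIs in Csf2-/- SILT and 68 cells and 13 UMIs in WT SILT. The beta chain that pairs with CD103, Itgb7, was not lower. It had 246 CPM in Csf2-/- SILT and 156 CPM in WT SILT, a ratio of 1.58 (interval 1.31 to 1.90), and 311 CPM in Csf2-/- lamina propria and 278 CPM in WT lamina propria, a ratio of 1.12 (0.919 to 1.36).

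The receptors through which cDC1 could sense CSF2 were present in both genotypes. Csf2ra had 99.2 CPM in Csf2-/- SILT and 76.7 CPM in WT SILT, and 150.1 CPM in Csf2-/- lamina propria and 140.0 CPM in WT lamina propria. Csf2rb had 102 CPM in Csf2-/- SILT and 54.3 CPM in WT SILT, a ratio of 1.87 (interval 1.38 to 2.54), and 99.7 CPM in Csf2-/- lamina propria and 105 CPM in WT lamina propria. Reads of Csf2rb can be shared with its close copy Csf2rb2, so both levels are uncertain. Flt3, the receptor of the growth factor on which cDC1 depend, had 140.0 CPM in Csf2-/- SILT and 116 CPM in WT SILT, and 172 CPM in Csf2-/- lamina propria and 129.6 CPM in WT lamina propria. Of the 18 genes of the list of CSF2 and FLT3 receptors and STAT5 targets, 5 could be compared in SILT and 6 in the lamina propria, and Itgae alone was past 2-fold in each. The STAT5 targets Cish and Socs2 were too sparse to compare. Cish had 0 UMIs in cDC1 of either Csf2-/- library, 4 in WT SILT and 2 in WT lamina propria, and Socs2 had 0 UMIs in Csf2-/- SILT and 10 in WT SILT, and 1 in Csf2-/- lamina propria and 4 in WT lamina propria.

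Few other genes differed between genotypes in cDC1. A gene entered a comparison with a level of 100 CPM or more in either library and a sum of 20 UMIs or more, and was called when at least 2-fold apart. In SILT, 16 of 1371 genes (1.17%) were called higher in Csf2-/- cells and 18 (1.31%) lower. In the lamina propria 6 of 1564 (0.384%) were called higher and 37 (2.37%) lower. That split leaned less to lower genes when libraries were scaled by TMM factors, with 10 higher and 27 lower. Of the 1252 genes compared in both tissues, 2 were past 2-fold higher in Csf2-/- cells of both and 6 lower in both, Itgae among these. The other 5 were the linker histone genes Hist1h1b and Hist1h1e, the ribosomal RNA-like transcripts AY036118 and Gm42418, and the immunoglobulin gene Igkc.

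Lists of cDC1 functions showed few members past 2-fold. Of 25 cDC1 identity genes, 15 could be compared in SILT, with Itgae lower and 14 within 2-fold, and a median log2 ratio of Csf2-/- to WT of 0.27 beside 0.014 over all genes compared. In the lamina propria 15 could be compared, with Itgae and Zeb2 lower. Zeb2, a factor that cDC1 precursors switch off, had 64.4 CPM in Csf2-/- and 176 CPM in WT lamina propria. No member of the class I and cross-presentation list (19 compared in each tissue) or of the class II list (11 in each) was past 2-fold in either tissue. Among pattern recognition genes 1 was, Havcr2 (TIM-3), an inhibitory receptor that binds phosphatidylserine, with 142 CPM in Csf2-/- SILT and 319 CPM in WT SILT. Its lamina propria levels were 136 CPM in Csf2-/- and 176 CPM in WT mice, within 2-fold. In SILT no member of the cytokine list (3 compared), the co-stimulation list (5), the interferon list (1), the cell cycle list (9) or the dissociation and heat shock list (15) was past 2-fold. In the lamina propria the same lists, with 3, 5, 1, 11 and 15 compared, had Cenpf alone past it. Of 8 migration and adhesion genes compared in each tissue, Itgae alone was past 2-fold in either.

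Of the 16 values past 2-fold that the naming rule gave in SILT, 6 came under 2-fold in at least 1 other setting (Furin, Neat1, Grk3, Phip, Jchain and Bcl2a1b), and 0 changed sign. Other genes higher in Csf2-/- SILT included S100a4, a calcium-binding protein of motile cells, and Furin, a protease that cleaves proproteins. S100a4 had 422 CPM in Csf2-/- SILT and 152 CPM in WT SILT, 2.79-fold higher (interval 2.37 to 3.28), but 765 CPM in Csf2-/- lamina propria and 1118 CPM in WT lamina propria, where it was lower. Furin had 278 CPM in Csf2-/- SILT and 101 CPM in WT SILT, and the ratio of 2.74 was 2.07 without the top cell of each library. The nuclear transcript Neat1 had 282 CPM in Csf2-/- SILT and 123 CPM in WT SILT. Ogt (which adds sugar to nuclear proteins), Grk3 (a receptor kinase), Ap2a2 (an endocytic adaptor) and Phip were 2.11-fold to 2.53-fold higher in Csf2-/- SILT. Ogt and Grk3 were also over 2-fold higher in Cd209a-gated cells, with ratios of 2.04 and 2.41, so they were not a feature of cDC1 alone.

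Genes lower in Csf2-/- SILT had less even sources. Jchain, the joining chain of secreted antibodies, had 88.7 CPM in Csf2-/- SILT and 1041 CPM in WT SILT, but 1570 of the 1764 WT UMIs came from 1 cell. Without the top cell of each library its ratio was 0.746, and it is not read as a difference of cDC1. Hist1h1e had 59.5 CPM in Csf2-/- SILT and 322 CPM in WT SILT, and 55.8 CPM in Csf2-/- and 166 CPM in WT lamina propria. In Cd209a-gated cells its ratio of Csf2-/- to WT was 0.245 in SILT and 0.283 in the lamina propria, so the histone difference ran through other cells of the same libraries. AY036118 behaved likewise, with ratios of 0.265 and 0.475 in Cd209a-gated cells. Igfbp7, a secreted binding protein of vessels, had 17.5 CPM in Csf2-/- SILT and 139 CPM in WT SILT, beside a summed level of the 8 endothelial markers of 50.2 CPM in Csf2-/- SILT and 362 CPM in WT SILT, and 92 of its 236 WT UMIs were in 1 cell. Fabp4, the endothelial marker abundant enough to compare, had 11.7 CPM in Csf2-/- SILT and 137 CPM in WT SILT. The part of endothelial RNA in it was not tested. Ly6a (Sca-1) had 32.7 CPM in Csf2-/- SILT and 137 CPM in WT SILT, and Bcl2a1b, a survival gene whose reads can be shared with its paralogs, 42.0 CPM in Csf2-/- SILT and 121 CPM in WT SILT. The log2 ratio of Bcl2a1b was -1.53, and -0.56 with a gate of 1 Xcr1 or Clec9a UMI, which is under 2-fold.

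In the lamina propria the naming rule, which leaves out other cells' markers and genes without a name, put the retrotransposon-derived genes Rtl8a and Rtl8b first among those higher in Csf2-/- cells. They are near copies and may share reads. Rtl8a had 278 CPM in Csf2-/- and 76.0 CPM in WT lamina propria (3.65-fold, interval 2.65 to 5.15), and Rtl8b 279.9 and 89.9 CPM in that order. In Cd209a-gated cells their ratios were 0.866 and 0.718, within 2-fold. Nsmaf, Cd300c2 and Evl had ratios of 1.999 to 2.14, of which those of Nsmaf and Cd300c2 moved with the gate. The log2 ratio of Nsmaf was 1.10, and 0.59 with a gate of 1 Xcr1 or Clec9a UMI, and that of Cd300c2 was 1.06, 0.72 with that gate, 1.94 with a gate of 3 UMIs and 1.76 without members holding 2 or more Cd209a UMIs. Txndc16 and H2-Ob (an inhibitor of peptide loading onto class II) had ratios of 1.93 and 1.90. Of the 12 values past 2-fold that the rule gave in the lamina propria, 4 came under 2-fold in at least 1 other setting (Nsmaf, Cd300c2, Dab2 and Cenpf). Lower genes included Dab2, an endocytic adaptor, with 27.9 CPM in Csf2-/- and 104 CPM in WT lamina propria. Its fold lower of 3.72 was 1.75 without the members holding 2 or more Cd209a UMIs. Cenpe and Cenpf, kinetochore proteins of dividing cells, had 34.3 and 92.2 CPM in Csf2-/- lamina propria, against 121 and 258 CPM in WT lamina propria. Cenpf was 2.79-fold lower, and 1.78-fold without the top cell of each library, since 1 WT cell held 79 of 149 UMIs. Myo5a, a myosin, had 34.3 CPM in Csf2-/- and 107 CPM in WT lamina propria. Lars2, a mitochondrial tRNA synthetase, had 140 CPM in Csf2-/- and 413 CPM in WT lamina propria, and its ratio was similar in the other gates (0.264 in Cd209a-gated and 0.263 in C1q-gated cells).

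**Figure D3:**
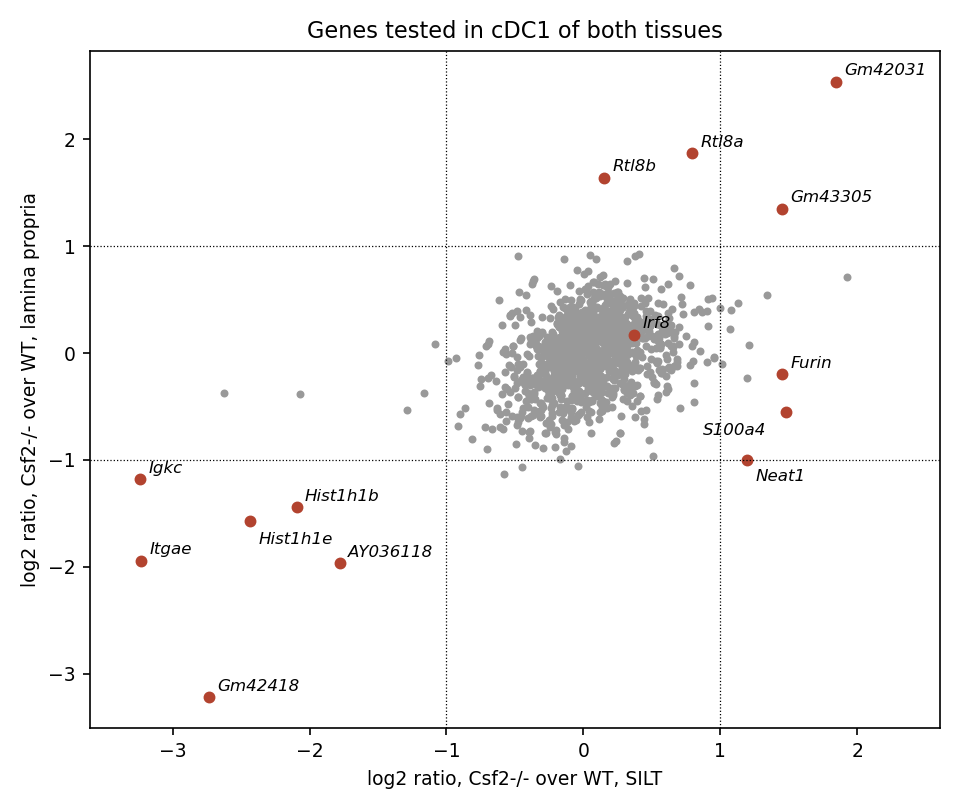
Log2 ratio of Csf2-/- to WT in summed cDC1 of SILT (horizontal) and of the lamina propria (vertical), 1 point for each of the 1252 genes compared in both tissues. Dotted lines mark 2-fold and red points are named. Itgae lies past 2-fold lower in both tissues (log2 ratios of -3.23 and -1.94), while Irf8 lies near the centre.

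Markers of other cells were measured beside these differences. The 11 cDC2 markers summed to 263 CPM in cDC1 of Csf2-/- SILT, 205 CPM in WT SILT, 404 CPM in Csf2-/- lamina propria and 866 CPM in WT lamina propria, against 2928 to 3843 CPM in Cd209a-gated cells, with Clec4a4 at 0 in each cDC1 sum. WT lamina propria thus carried the most cDC2 RNA in its cDC1. The 11 markers include Cd209a, which averaged 82.2 CPM in cDC1 and 1077 CPM in Cd209a-gated cells. Part of the distance between the gates was therefore set by the gate itself. Members with at least 2 Cd209a UMIs numbered 4 of 49 in Csf2-/- SILT, 4 of 102 in WT SILT, 4 of 51 in Csf2-/- lamina propria and 6 of 31 in WT lamina propria. Mgl2, Cd209a and Clec10a, the cDC2 markers abundant enough to compare there, were 6.82-fold, 4.08-fold and 2.26-fold lower in Csf2-/- than in WT lamina propria, and their part in the other differences was not tested beyond leaving out those members. The 13 macrophage markers summed to 351 CPM in Csf2-/- SILT and 574 CPM in WT SILT, and to 386 CPM in Csf2-/- lamina propria and 798 CPM in WT lamina propria. The 8 fibroblast and muscle markers summed to 16.3 CPM in Csf2-/- SILT and 142 CPM in WT SILT, and to 33.2 CPM in Csf2-/- lamina propria and 74.3 CPM in WT lamina propria. The endothelial sum in the lamina propria was 223 CPM in Csf2-/- and 380.2 CPM in WT mice. Markers of these 3 cell types were thus lower in cDC1 of the Csf2-/- libraries in both tissues, and their part in the genotype differences was not tested. The 11 monocyte markers summed to 1092 CPM in Csf2-/- SILT and 633 CPM in WT SILT, and to 613 CPM in Csf2-/- lamina propria and 755 CPM in WT lamina propria. The 10 T, NK and ILC markers summed to 5.36 to 12.1 CPM. In Csf2-/- SILT, S100a8 and S100a9, neutrophil genes, had 177 and 198 CPM, of which 1 cell held 147 UMIs of S100a8 and 1 cell 165 UMIs of S100a9.

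Tissue differences were larger in WT than in Csf2-/- mice by count. In WT mice, 28 of 1593 genes (1.76%) were called higher in SILT cDC1 than in lamina propria cDC1 and 153 (9.6%) lower. With TMM factors the counts were 111 higher and 60 lower, because that scaling moved the median log2 ratio of all genes to 0.17, against -0.11 without it. The direction of the bulk of small differences therefore rests on the scaling. In Csf2-/- mice 8 of 1431 (0.559%) were higher in SILT and 18 (1.26%) lower, and 10 and 9 with TMM factors. The difference between these genotype-specific counts was not tested, and the WT lamina propria library, with 31 cells, enters only the WT comparison.

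Of the genes given by the naming rule, which leaves out other cells' markers, S100a4 lay furthest below in WT SILT, with 152 CPM in WT SILT and 1118 CPM in WT lamina propria (7.37-fold lower, interval 6.37 to 8.55). In Csf2-/- mice it had 422 CPM in SILT and 765 CPM in the lamina propria. Its direction was the same in both genotypes. Zeb2 had 31.3 CPM in WT SILT and 176 CPM in WT lamina propria, Cenpf 36.6 and 258 CPM, and Neat1 123 and 593 CPM in that order. Cenpf was 7.04-fold lower, and 4.48-fold without the top cell of each library. Without members holding 2 or more Cd209a UMIs, Zeb2 was 3.78-fold lower in WT SILT instead of 5.64-fold, while Dab2 was 2.02-fold lower instead of 6.51-fold and Tent5a, an RNA-tailing enzyme, 1.58-fold instead of 5.17-fold. Ifi27l2a, an interferon-induced gene, had 58.4 CPM in WT SILT and 299 CPM in WT lamina propria.

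Dnase1l3, a secreted nuclease that digests DNA on dying cells' particles, was 5.73-fold higher in cDC1 of WT SILT than of WT lamina propria (128.6 and 22.5 CPM). Its ratio was 5.50 in Cd209a-gated and 4.22 in C1q-gated cells. Bcl2a1b had 121 CPM in WT SILT and 20.7 CPM in WT lamina propria. Without the top cell of each library the ratios of Dnase1l3 and Bcl2a1b were 9.49 and 10.2, as each had at most 13 UMIs in WT lamina propria. Psme2, a subunit of the proteasome activator PA28, was the class I list's gene past 2-fold higher, with 517 CPM in WT SILT and 247 CPM in WT lamina propria, and Cybb, a subunit of the phagocyte oxidase, was lower, with 33.0 and 111 CPM. Ciita, the master regulator of class II genes, had 159.9 CPM in WT SILT and 321 CPM in WT lamina propria, whereas Cd74, the invariant chain it controls, was 1.52-fold higher in SILT (interval 1.49 to 1.56). Ffar4 (a fatty acid receptor), Alyref (mRNA export), Psmb2 (a proteasome subunit) and Spcs1 (signal peptidase) were 2.48-fold to 2.94-fold higher in WT SILT. Lars2 was 4.32-fold lower in WT SILT. The log2 ratio of Hist1h1b was 1.32, and 0.59 with a gate of 1 Xcr1 or Clec9a UMI, 2.54 with a gate of at most 4 C1q UMIs and 2.30 without the top cell of each library. Of the 17 values past 2-fold that the rule gave between the WT libraries, 5 came under 2-fold in at least 1 other setting (Hist1h1b, Dab2, Tent5a, Spcs1 and Itgam).

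Other list members past 2-fold between the WT libraries were few. Nfkbia, an inhibitor of NF-kB, had 247 CPM in WT SILT and 123 CPM in WT lamina propria, and Pclaf had 358 and 173 CPM in that order. Mki67, a marker of dividing cells, had 161 CPM in WT SILT and 420 CPM in WT lamina propria, so cell cycle genes did not move one way, with 1 higher and 2 lower of 12 compared. Fosb, an early response factor, had 413 CPM in WT SILT and 1085 CPM in WT lamina propria, and the integrin gene Itgb2 was 2.23-fold lower in WT SILT.

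In Csf2-/- mice the genes higher in SILT by the naming rule, which leaves out other cells' markers, included Dut and Pclaf, of DNA synthesis, Ranbp1, of nuclear transport, and Mkrn1, Cuta, Alyref, Fkbp3 and Phf5a, with ratios of 1.72 to 2.16. Of the 11 values past 2-fold that the rule gave here, 10 came under 2-fold in at least 1 other setting. Ranbp1 had 421 CPM in Csf2-/- SILT and 197 CPM in Csf2-/- lamina propria. Lower in SILT were Tent5a, Plec, Sptbn1, Hmgcs1, Prkcd, Stk10 and Itch, 2.28-fold to 2.53-fold, of which Hmgcs1 is a gene of cholesterol synthesis. Apol7c, an apolipoprotein L gene on the list of migratory cell markers, had 328 CPM in Csf2-/- SILT and 82.6 CPM in Csf2-/- lamina propria, and 111 CPM in WT SILT and 29.4 CPM in WT lamina propria. Few cells carried it, 3 in each lamina propria library, and 1 cell held 69 of the 77 UMIs in Csf2-/- lamina propria and another 15 of the 17 in WT lamina propria. Without the top cell of each library the ratios of SILT to lamina propria were 26.0 in Csf2-/- and 27.5 in WT mice, against 3.97 and 3.78 with them, so the size of the difference rests on single cells.

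cDC1 were then compared with Cd209a-gated cells, whose cDC2 marker genes are named above, in a test that uses the 4 libraries as replicates (edgeR quasi-likelihood test with library as a term, Benjamini-Hochberg adjustment over all genes). Whether the libraries share mice is not stated, so they may not be independent, and the p values and SDs do not measure differences between mice. The same holds for the comparison with Fscn1-gated cells below. The genes of the gates were left out of what follows. Of 9828 genes tested, 1440 (14.7%) were higher in cDC1 and 1475 (15%) lower at an adjusted p under 0.05. The gates were drawn to separate these cells, so genes that travel with Xcr1 and Clec9a are a description of the gate.

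cDC1 identity genes were higher in cDC1 for 21 of the 23 tested, 1 did not pass and Zeb2 was lower. Irf8 averaged 1493 ± 198 CPM in cDC1 and 40.1 ± 9.27 CPM in Cd209a-gated cells (SD, n = 4 libraries), a log2 difference of 5.29 ± 0.12 (SE, edgeR adjusted p = 1.34e-12). Every cDC1 sum lay above every Cd209a-gated sum, from 1220 to 1680 CPM against 28.7 to 51.1 CPM. Batf3 differed far less, at 192 ± 31.9 CPM in cDC1 and 115 ± 16.3 CPM in Cd209a-gated cells (log2 difference 0.80 ± 0.13). Id2, which blocks E-protein factors, was 6.72-fold higher, and Zbtb46 and Flt3, shared by conventional dendritic cells, 1.35-fold and 1.40-fold. Cadm1, an adhesion molecule, and Wdfy4, which cross-presentation of cell-bound antigen requires, were 31.3-fold and 2.82-fold higher. Gcsam had 48.3 to 88.5 CPM in cDC1 and 0 UMIs in Cd209a-gated cells of every library.

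The naming rule took genes with a mean of at least 50 CPM over both gates, which leaves out sparser ones such as Snx22, 65.1-fold higher in cDC1. Tlr3 averaged 248 ± 46.2 CPM in cDC1 and 7.12 ± 3.31 CPM in Cd209a-gated cells. Ifi205 and Ifi211, of the interferon-inducible DNA sensor family and possibly sharing reads, were 77.6-fold and 8.03-fold higher, and Tlr11 and Tlr12, receptors of protozoan profilin, 3.13-fold and 59.0-fold. The lysosomal enzyme gene Ppt1 averaged 964 ± 51.5 CPM in cDC1 and 66.9 ± 11.1 CPM in Cd209a-gated cells, and Rab7b, a GTPase of late endosomes, was 29.4-fold higher. P2ry14, a receptor of UDP-sugars, Gpr141b, the transporter gene Slco3a1, the scavenger receptor gene Cd36 and Rtl8b completed the 12 highest, at 6.04-fold to 29.3-fold. On the other side stood lectins of the Clec4 family (Clec4a1, Clec4a3, Clec4b1), chemokine and receptor genes (Ccl9, Ccr1), the IgG receptor gene Fcgr3, the oxidase gene Cybb, Wfdc17, Ier3, Tmem176a and Tmem176b, which were 7.40-fold to 11.4-fold lower in cDC1. Socs3, an inhibitor of cytokine signalling, was lower as well, at 29.99 ± 13.4 CPM in cDC1 and 314 ± 96.6 CPM in Cd209a-gated cells.

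**Figure D4:**
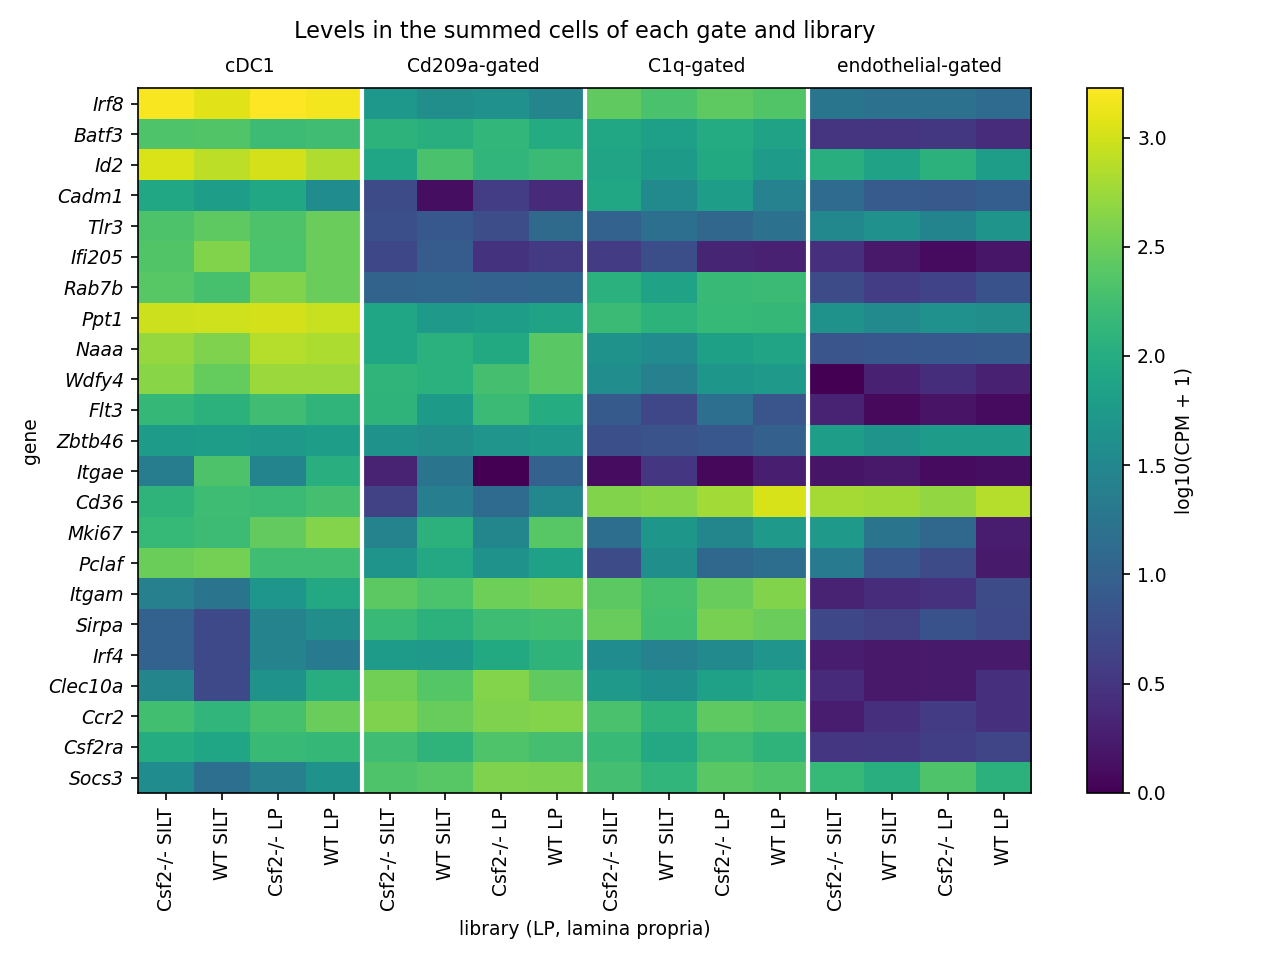
Levels of 23 genes as log10(CPM + 1), shown by colour, in the summed cells of 4 gates (blocks of columns) and 4 libraries (columns). Irf8 runs from 1220 to 1680 CPM in cDC1 and from 28.7 to 51.1 CPM in Cd209a-gated cells, and Itgae is darker in the Csf2-/- columns of the cDC1 block than in its WT columns.

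Of the 23 class I and cross-presentation genes, 11 were higher in cDC1, 7 lower, and 5 did not pass (Psmb10, Erap1, Canx, Sec61b and Sec22b). Higher were 2 of the immunoproteasome subunit genes, Psmb8 and Psmb9, the PA28 genes Psme1 and Psme2, the peptide transporter genes Tap1 and Tap2, Tapbp, Calr, Pdia3, Wdfy4 and Rab43. Psmb9 averaged 464 ± 106 CPM in cDC1 and 143 ± 38.3 CPM in Cd209a-gated cells, and Tap1 159 ± 30.8 CPM and 75.9 ± 16.9 CPM. The class I chains themselves were lower, H2-K1 by 1.30-fold, H2-D1 by 1.37-fold and B2m by 1.19-fold, as were Cybb, Cyba, Lgmn and Ctss. Of 11 class II genes 0 were higher and 7 lower, among them Cd74 (log2 difference -0.46 ± 0.07), H2-Aa (-0.31 ± 0.07) and Ctss (-1.45 ± 0.11), the protease that degrades the invariant chain.

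The receptor side of CSF2 was lower in cDC1 than in Cd209a-gated cells. Of 18 genes of the CSF2, FLT3 and STAT5 list, 2 were higher (Flt3 and Itgae) and 10 lower. Csf2ra averaged 117 ± 34.5 CPM in cDC1 and 175 ± 37.7 CPM in Cd209a-gated cells (log2 difference -0.56 ± 0.10, edgeR adjusted p = 5.93e-04), and Csf2rb 90.2 ± 24.1 CPM and 143 ± 38.8 CPM (-0.63 ± 0.13). Stat5a, Stat5b, Cish, Pim1 and Mcl1 were also lower. Itgae averaged 91.4 ± 87.1 CPM in cDC1 and 6.72 ± 7.69 CPM in Cd209a-gated cells. The wide SD is over libraries of both genotypes and both tissues, whose levels differed as given above.

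Inflammatory and early response genes were mostly lower in cDC1. Of 15 cytokine and chemokine genes tested 9 were lower, with Il1b at 138 ± 29.8 CPM in cDC1 and 572 ± 217 CPM in Cd209a-gated cells. Among these 9, Ccl3 and Ccl5 lay lower in 3 of the 4 libraries only, and Ccl17 in 2. Cxcl9 was higher, at 10.2 ± 9.86 CPM in cDC1 and 1.66 ± 2.05 CPM in Cd209a-gated cells, though in 3 of the 4 libraries only. Of 16 co-stimulation and maturation genes 9 were lower and Cd86 was higher, 2.77-fold. Of 17 dissociation and heat shock genes 11 were lower and Hsph1 was higher, and these genes respond to how cells are isolated. Among 16 migration and adhesion genes Cxcr3 and Itgae were higher and Ccr2, Cxcr4, Cx3cr1, Itgam and Epcam lower, Cxcr4 and Epcam in 3 of the 4 libraries only. Itgam had 24.5 CPM in Csf2-/- SILT, 16.5 in WT SILT, 48.3 in Csf2-/- lamina propria and 86.4 in WT lamina propria, against 202 to 370 CPM in Cd209a-gated cells. All 9 cDC2 markers tested were lower. Of 14 pattern recognition genes 6 were higher (Tlr3, Tlr11, Tlr12, Clec12a, Havcr2 and Cd36) and 5 lower, among them Tlr2 and Tlr4, the receptors of bacterial lipoproteins and lipopolysaccharide. Clec12a lay higher in 3 of the 4 libraries only. Of 18 interferon response genes 3 were higher, among them Stat2, and 6 lower. Of the markers of other cells, 8 of 10 macrophage, 6 of 8 monocyte, 6 of 8 fibroblast and muscle, 4 of 4 T, NK and ILC, 3 of 3 epithelial and 2 of 6 plasmacytoid markers were lower and none was higher, 0 of 7 endothelial and 0 of 2 B cell markers passed either way, and of 3 migratory markers Apol7c was higher and Il4i1 lower.

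Cell cycle genes were higher in cDC1 for all 20 on the list, with a median log2 difference of 1.53 beside -0.014 over all genes tested. Cenpf, among them, lay higher in 3 of the 4 libraries only. Mki67 averaged 252 ± 128 CPM in cDC1 and 105 ± 102 CPM in Cd209a-gated cells, Top2a 233 ± 69.9 and 92.0 ± 76.2 CPM, and the replication gene Pclaf 253 ± 96.7 and 61.2 ± 20.6 CPM. All 20 were also called with DESeq2, 19 without the WT lamina propria library and 15 without the library term. The difference was also seen when cells were thinned to equal depth after gating. Before thinning, the median was 15834.5 to 19067 UMIs per cell in cDC1 and 9258 to 14575 in Cd209a-gated cells. The gates were set at full depth, and the part of depth in who passed them was not tested. With cells thinned to 5000 UMIs, at least 3 UMIs of 8 cell cycle genes were found in 16.7% of cDC1 and 3.11% of Cd209a-gated cells of Csf2-/- SILT, and in 18.2% of cDC1 and 10.98% of Cd209a-gated cells of WT SILT. They were found in 22.4% of cDC1 and 3.37% of Cd209a-gated cells of Csf2-/- lamina propria, and in 32.3% of cDC1 and 10.4% of Cd209a-gated cells of WT lamina propria. The cDC1 share was the higher one in all 4 libraries. Their exact intervals overlap in the WT SILT library (11.1% to 27.2% in cDC1 and 7.42% to 15.5% in Cd209a-gated cells) and do not overlap in the other 3. None of the 8 genes was seen in 30 of 48, 60 of 99, 28 of 49 and 16 of 31 thinned cDC1 in the order of groups of the opening, and 1 to 8 cells per library stood at 2 or 3 UMIs, beside the cut. Endothelial cells reached 0% to 1.81%.

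**Figure D5:**
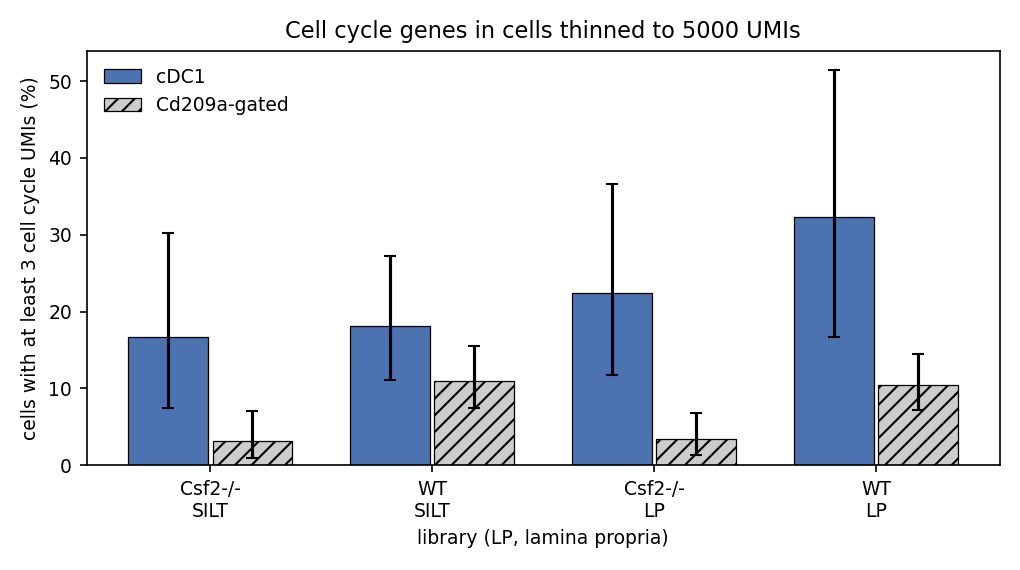
Share of cells with at least 3 UMIs of 8 cell cycle genes after thinning to 5000 UMIs, in percent, for cDC1 (blue) and Cd209a-gated cells (hatched) of each library. Error bars are exact 95% binomial intervals. The cDC1 bar is the taller one in every library, from 16.7% to 32.3%, and its intervals are wide.

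A last comparison set cDC1 against Fscn1-gated cells, which carry the maturation gene Fscn1 and the lymph-node homing receptor gene Ccr7. These numbered 2 in Csf2-/- SILT, 15 in WT SILT, 0 in Csf2-/- lamina propria and 9 in WT lamina propria, so 3 libraries entered the test and the largest comparison cell set held 15 cells. Of 5270 genes, 587 (11.1%) were higher in cDC1 and 566 (10.7%) lower (edgeR, adjusted p under 0.05), with 204 and 320 without the WT SILT library and 234 higher without the WT lamina propria library. Of 17 co-stimulation and maturation genes 15 were lower in cDC1, among them Cd40, Relb and the chemokine gene Ccl22, and of 20 cell cycle genes 19 were higher, of which 8 kept the call without the WT SILT library and 10 without the WT lamina propria library. Batf3 did not pass (log2 difference 0.32 ± 0.36). Csf2rb was lower in cDC1, at a log2 difference of -1.99 ± 0.34.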

How the data were processed

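The matrices that the authors deposited for 4 libraries (10x Genomics, 3' ends) hold raw counts, whole UMIs per barcode for each of 32285 features, which had not been normalized. Cell Ranger 2.1.1 and mm10 are named per the submitters' processing notes, whereas per the file headers version 6.0.0 wrote the matrices, and version 2 chemistry is named in the labels' protocols. Barcodes were called by the authors, and no correction for free RNA was made. Groups follow the labelled genotype and tissue.

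Barcodes under 200 genes or over 10% mitochondrial UMIs were set aside, and the rest gated as described above. Scrublet (scanpy 1.11.5, expected rate 0.8% per 1000 cells) called 10, 136, 7 and 52 doublets in Csf2-/- SILT, WT SILT, Csf2-/- lamina propria and WT lamina propria, of which 1 was a cDC1. Doublets were kept. UMIs were summed per library and gate. CPM divides by the summed UMIs of the gate, and nothing was added to the counts. Groups of 1 genotype in 1 tissue have 1 library each, so ratios between them carry no p. edgeR and DESeq2 fits over the 4 cDC1 sums, with tissue or genotype as a block and 1 residual degree of freedom, were added after the data had been seen. Ratios carry exact conditional binomial intervals, shares Clopper-Pearson intervals and levels exact Poisson intervals (95%, scipy 1.17.1), for counting error only. Genes compared had at least 100 CPM in 1 library and at least 20 UMIs over both, and called means at least 2-fold. A count of 0 was set to 3 counts for a ratio. The gate contrasts used edgeR 4.0.16 in R 4.3.3 (quasi-likelihood, TMM, library as a term). In simulated counts with 9515 genes for cDC1 against Cd209a-gated cells, it recovered 99% of 2-fold and 100% of 4-fold changes. For genotype with tissue as a block, in simulated counts of 7033 genes, edgeR recovered 75% of 2-fold changes, and 6.417% of its calls were false. Recovery is a share of the genes that were given a change, not of all genes. Spread between mice cannot be known from these libraries, so these shares do not measure it. They hold for the simulated counts only and give no rate of false calls for the real fits. Scripts ran in Python 3.11.15 with pandas 2.3.3, numpy 2.4.6 and, for figures, matplotlib 3.10.9.

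Genes named were the 8 highest and 8 lowest ratios per comparison whose interval was clear of 1, leaving out genes of the gates, of mitochondria, ribosomes, antigen receptors, haemoglobin or the Y chromosome, Xist and Tsix, genes without a name and other cells' markers, the 12 highest and 12 lowest of the gate contrast with a mean of at least 50 CPM and 1 direction in all 4 libraries, and members of the lists. Igkc, Gm42418, Xist, Snx22 and the genes of the closing observation were named outside that rule, after their values were seen. The members, 21 gene lists and tests were chosen with earlier results of these data known. List symbols that matched no feature and some genes that the rule names are not reported here. Coordinates are from GENCODE M21 on GRCm38. Alternatives were other gate limits and cell filters, doublets left out, thinned cells, TMM factors, CPM without mitochondrial and ribosomal protein genes, means over cells, other floors, the top cell left out, DESeq2 1.42.0, no filter, no library term and each library left out.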

Additional observations from a re-analysis of the deposited data

Results flagged for a closer look

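In cDC1, 10 genes had genotype ratios that ran opposite ways in the tissues, each with an interval clear of 1, and the difference between tissues was not tested since each rests on 1 library per group. The log2 ratio of Csf2-/- to WT was above 0 in SILT and below 0 in the lamina propria for S100a4 (1.48 in SILT, -0.55 in the lamina propria), Neat1 (1.20 and -1.002), Ccr2 (0.44 and -0.66), Fosb (0.55 and -0.40), Hsp90aa1 (0.41 and -0.40), Hspa1a (0.61 and -0.30) and Hspa1b (0.52 and -0.28). Ccr2 carries a reporter allele in every mouse. It was below 0 in SILT and above 0 in the lamina propria for Nfkbia (-0.48 and 0.91), an inhibitor of NF-kB, Psme1 (-0.18 and 0.35) and Cd74 (-0.045 and 0.23). Fosb, Hsp90aa1, Hspa1a and Hspa1b belong to the list of genes that respond to dissociation and heat, whose 17 members summed to 11756 CPM in Csf2-/- SILT, 10611 in WT SILT, 12133 in Csf2-/- lamina propria and 12349 in WT lamina propria. In all 10 genes the lowest and the highest level of the 4 libraries were those of the 2 WT libraries, with the Csf2-/- libraries between them. Choosing genes by opposite ratios bars some other orders by itself, so this order was in part set by the choice.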

How the results depend on the processing

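Itgae stayed lower in Csf2-/- cDC1 under every setting tried, with log2 ratios of -3.50 to -2.95 in SILT and -2.14 to -1.54 in the lamina propria. Among dendritic cell gates the cDC1 share was 20.5% in Csf2-/- SILT, 25.2% in WT SILT, 18.4% in Csf2-/- lamina propria and 8.88% in WT lamina propria. In the same order it was 3.07%, 1.81%, 4.10% and 1.43% of kept cells with a gate of 1 Xcr1 or Clec9a UMI, and 0.317%, 0.157%, 0.212% and 0.0952% with cells thinned to 1000 UMIs, where 4 to 11 members remained. Genes past 2-fold numbered, for Csf2-/- against WT in SILT, 78 with that looser gate, 53 by CPM without mitochondrial and ribosomal protein genes, 15 at a floor of 200 CPM and 1247 at 10 UMIs with none on CPM. The last 3 settings gave 67, 15 and 1100 in the lamina propria, 43, 8 and 1146 for SILT against lamina propria in Csf2-/- mice (15 with the looser gate), and in WT mice 71 and 2035 at the 2 floors. Fewer or more genes were eligible there by construction. Irf8 changed sign for Csf2-/- against WT in the lamina propria with a gate of 3 UMIs (log2 ratio -0.018) and without Cd209a-bearing members (-0.020), and for WT SILT against lamina propria with the 1-UMI gate (0.21). Itgam changed sign for Csf2-/- against WT in the lamina propria with a gate of 3 UMIs (0.76). The cause was not tested. Of cDC1 against Cd209a-gated cells, DESeq2 called 941 genes higher and 864 lower, and a fit with no replicate block for library 547 and 717, while leaving out 1 library gave 979 to 1321 higher and 1052 to 1286 lower. Of the 209 named or listed genes called there, 130 to 209 kept their call over the alternatives, fewest without the library term, and all 24 genes at the ends kept theirs. With cells of Flt3 and Zbtb46 in place of Cd209a as the comparison set, 173 kept it, 8 changed sign and 1 of these was called in the opposite direction. Against Fscn1-gated cells DESeq2 called 277 higher, and leaving out 1 library gave 204 to 454 higher (234 without WT lamina propria) and 320 to 550 lower. Depth limits genes under 100 CPM, which were not compared. With the other factor as a replicate block over the 4 cDC1 sums, edgeR called 118 genes between genotypes and 515 between tissues at an adjusted p under 0.05, and DESeq2 9 and 75, so these counts rest on the tool. No library could be left out of that fit, which would leave 0 residual degrees of freedom. Of 56 values past 2-fold in the genotype and tissue comparisons, 25 came under 2-fold in at least 1 setting and 0 changed sign.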

Other observations

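Itgae and Csf2 lie on the same chromosome, 11, with starts 18.8 Mb apart (Csf2 at 54247271 to 54249667, minus strand). Of the 1252 genes compared between genotypes in cDC1 of both tissues, 1248 had a chromosome in the annotation and 96 lay on chromosome 11, of which 48 started within 30 Mb of Csf2. Past 2-fold in at least 1 tissue were 29 of the 1252 genes and 3 of the 96 on chromosome 11, a similar share. The 3 were Itgae, Havcr2 and Sptbn1, each lower in Csf2-/- cells of SILT and all among the 48 within 30 Mb. Whether genes near Csf2 were called more often than others was not tested. Sptbn1, a spectrin of the membrane skeleton, had 66.5 CPM in Csf2-/- SILT and 162 CPM in WT SILT, and 165 CPM in Csf2-/- lamina propria and 239 CPM in WT lamina propria. In Cd209a-gated cells its ratio of Csf2-/- to WT was 0.368 in SILT and 0.533 in the lamina propria, and that of Havcr2 0.520 and 0.635. The window was chosen after these values were seen, and the alleles around Csf2 in these mice were not examined.

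cDC1 with few signs of division and dividing cDC1 differed in the summed level of Itgae in WT SILT. The split was made after the data had been seen, and the difference was not tested. Dividing cells had 93.8 CPM (40 UMIs in 18 cells) and the others 246 CPM (310 UMIs in 81 cells). The shares of cells with at least 1 Itgae UMI lay closer, at 50% of dividing cells and 66.7% of the others. In WT lamina propria the levels were 94.3 CPM in 10 dividing cells and 114 CPM in 21 others. In Csf2-/- mice dividing cells held 0 UMIs in 8 cells of SILT and 1 UMI in 11 cells of the lamina propria.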
